A study of Homo sapiens with 14 samples.

Results

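Induced CTNNB1 overexpression was compared with the uninduced state of the same line in medial ganglionic eminence (MGE)-like progenitors derived from H9, a human embryonic stem cell line. The members are 6 of the 14 RNA-seq libraries of the study, 3 from overexpression (OE) cells given doxycycline (OE with Dox) and 3 from OE cells not given it (OE without Dox). Of the 58051 genes in the table, the 16146 that reached a normalized read count of 10 in 3 or more of these 6 libraries were tested. The other libraries are 3 from wild-type H9 (WT) and 5 from CTNNB1 knockout cells.

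Both OE groups carry the inducible CTNNB1 construct and went through the same differentiation to day 25. Inhibitors of TGF-beta and BMP receptors (SB431542, 2 µM, and LDN193189, 200 nM) were given to embryoid bodies in suspension between day 0 and day 6. SHH at 250 ng/mL and purmorphamine at 0.3 µM, which activates Smoothened, followed from day 10 to day 17, and neurospheres were then grown to day 25. Doxycycline (0.1 µg/mL) was present in the neurosphere stage, days 17 to 25, in OE with Dox and was left out in OE without Dox. The form of CTNNB1, its promoter and the number of clones are not given in the sources used here. No WT library received the drug, so an effect of doxycycline and one of the transgene cannot be told apart. The labels do not say whether replicates were separate differentiations, so p-values measure the spread between these samples, which may be technical.

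Beta-catenin, the protein of CTNNB1, is held low in resting cells by a destruction complex of AXIN, APC, GSK3 and CK1 that marks it for degradation. A WNT ligand bound to a frizzled receptor and LRP5 or LRP6 stops this, and beta-catenin then enters the nucleus and activates target genes with TCF and LEF factors. Several targets encode inhibitors of the pathway itself. In the embryonic forebrain WNT signals come from dorsal midline tissue, while the MGE forms ventrally under SHH and gives rise to cortical interneurons.

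Each of the 6 libraries held between 5402330 and 5639725 reads in genes. Values below are normalized read counts, listed for libraries 1, 2 and 3 of a group, and fold changes are log2 folds of OE with Dox over OE without Dox from limma with their standard errors (SE). An adjusted p is limma's after Benjamini-Hochberg correction over all 16146 genes, and a gene is called higher or lower where it is under 0.05. By this rule 2199 genes (13.6%) were higher and 2107 (13.0%) were lower with Dox, 26.7% in all, and the median log2 fold of all genes was 0.03. Counts of list members called higher or lower below are to be read beside these shares. Calls of at least 2-fold numbered 1216 higher (7.53%) and 1137 lower (7.04%). At 8-fold or more the split was unequal, with 337 of the 16146 genes higher and 59 lower. The filter was unequal too, as 323 genes passed only through the libraries with Dox and 184 only through those without. How far this accounts for the split was not tested. Genes called higher carried 22.1% of all normalized counts with Dox and 10.0% without, while genes called lower carried 9.62% with Dox and 19.9% without. In 41.4% of genes tested all libraries of one group lay wholly above those of the other.

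CTNNB1 (chromosome 3, 41194741 to 41260096, plus strand, hg38) stood at 26028, 23861 and 31290.1 with Dox, against 3084, 3318 and 3633 without. All libraries with Dox lay far above all without it (log2 fold 3.01, SE 0.14, adjusted p = 7.71e-11). Transgene and endogenous transcripts are not separated in this count. WT libraries, which lack the construct, averaged 3814.

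**Figure D1:**
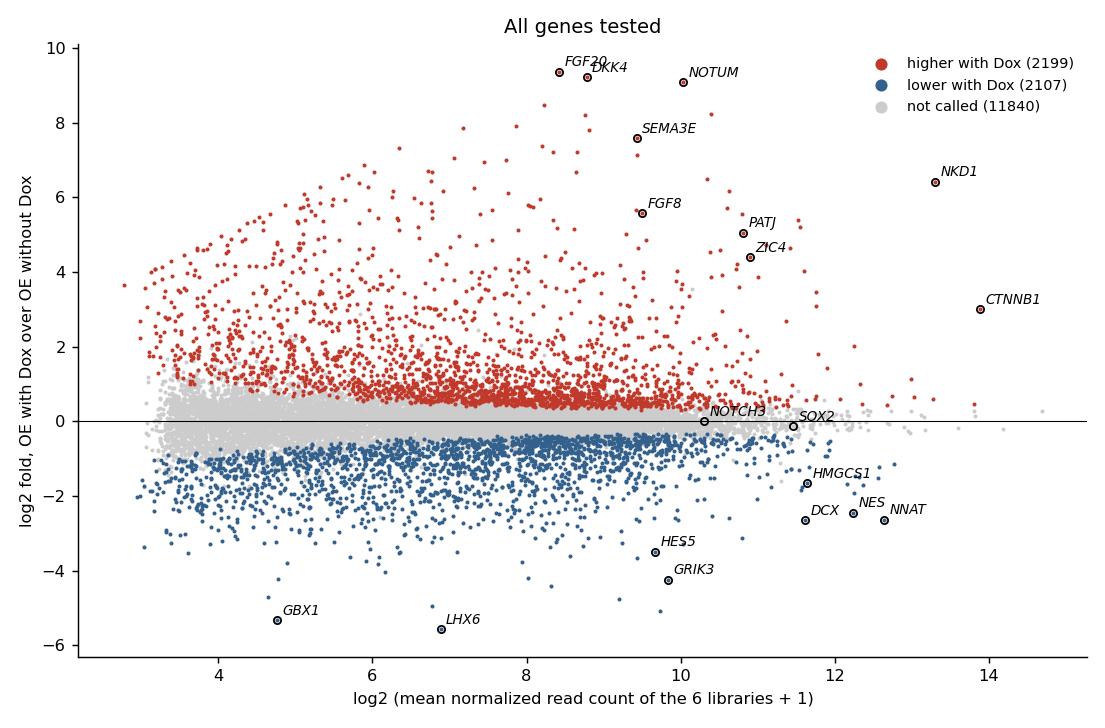
Log2 fold of OE with Dox over OE without Dox (vertical axis) against the log2 of the mean normalized read count plus 1 over the 6 libraries (horizontal axis), 1 point per gene tested. Coloured points are the 2199 genes called higher and the 2107 called lower, and the upper edge of the cloud extends further from 0 than the lower edge.

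Genes that restrain WNT signalling inside the cell or mark its activity were higher with Dox almost throughout. Of 23 tested genes of this kind 19 were higher and 1 was lower, with a median log2 fold of 3.57, against 13.6% higher and a median of 0.03 over all genes. Of these 23, 6 passed the expression filter only through the libraries with Dox. The lists share genes, so their counts are not independent: this list also holds AXIN2, LEF1 and FGF20, described below under other lists. NKD1, which binds Dishevelled and dampens the pathway, was read at 17918, 19541 and 22553 with Dox, against 209, 243 and 243 without (log2 fold 6.42, adjusted p = 1.91e-13). Its gain of 19772 in mean normalized count was the largest after that of CTNNB1 itself. RNF43, a ubiquitin ligase that removes frizzled receptors from the membrane, had 550.3, 619 and 760.4 with Dox, against 5.49, 0.925 and 5.44 without (log2 fold 7.21). The 2 groups were far apart, although 69.0% of RNF43 exon sequence overlaps another gene on the same strand and reads there cannot be assigned with certainty. Its paralogue ZNRF3 rose less, to 940.0, 1128 and 1025 with Dox, against 170.1, 169 and 186 without (log2 fold 2.55, adjusted p = 1.71e-08). APCDD1, a membrane inhibitor of WNT, stood at 3720.4, 7727 and 6128 with Dox, against 149, 163 and 139.6 without (log2 fold 5.21). TNFRSF19, a receptor known as TROY, and DACT1, a Dishevelled-binding protein, rose by log2 folds of 3.77 and 3.21. FOXQ1, a forkhead factor, had 89.6, 249 and 112 with Dox, against 1 read in each library without Dox (log2 fold 6.16). The member called lower was SP8, a zinc-finger factor of the forebrain (log2 fold -1.07, adjusted p = 0.00398).

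Among the members not called were genes often named as beta-catenin targets in other tissues. CCND1, a G1 cyclin, stood at 742, 1260.3 and 1006 with Dox, against 966, 1108 and 895 without (log2 fold -0.01, adjusted p = 0.987). LGR5, an R-spondin receptor, had 186, 254 and 144 with Dox, against 240.5, 194 and 151 without (log2 fold -0.02, adjusted p = 0.977). In both genes the groups overlapped. MYC was low in both groups, at a mean of 21.0 with Dox and 23.2 without, and was not called (adjusted p = 0.809).

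SP5, a transcription factor that competes with other SP factors at WNT targets, was read at 1977, 2734 and 2972 with Dox, against 23.8, 23.1 and 35.4 without (log2 fold 6.50, adjusted p = 5.14e-11). DKK1, a secreted blocker of LRP5 and LRP6, had 1392, 4374 and 2304 with Dox, against 5.49, 6.48 and 9.97 without (log2 fold 8.22, adjusted p = 7.89e-10). Promoters of both genes are shown because they hold letters of the TCF and LEF binding motif. The sequences are the 250 bases before the RefSeq gene start on GRCh38.p14, 5′ to 3′ on the plus strand, the strand of both genes. They span chr2:170715087-170715336 for SP5 and chr10:52314031-52314280 for DKK1. Capitals mark the motif CTTTGAT and its variants CTTTGAA and CTTTGTA and CTTTGTT, searched on both strands, so a match on the minus strand reads as its reverse complement.
SP5 promoter: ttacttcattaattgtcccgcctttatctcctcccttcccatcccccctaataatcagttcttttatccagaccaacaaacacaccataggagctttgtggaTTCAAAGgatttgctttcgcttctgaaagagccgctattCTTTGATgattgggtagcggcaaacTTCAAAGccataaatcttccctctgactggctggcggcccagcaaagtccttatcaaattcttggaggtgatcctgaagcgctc
DKK1 promoter: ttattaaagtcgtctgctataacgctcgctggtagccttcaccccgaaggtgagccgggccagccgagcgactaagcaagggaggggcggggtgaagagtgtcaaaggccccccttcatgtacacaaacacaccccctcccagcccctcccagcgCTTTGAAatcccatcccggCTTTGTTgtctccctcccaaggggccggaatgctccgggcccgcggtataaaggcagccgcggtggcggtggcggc
The SP5 window holds 3 matches, CTTTGAA on the minus strand at 148 to 142 and at 84 to 78 bases before the start and CTTTGAT on the plus strand at 109 to 103 bases. The DKK1 window holds 2, CTTTGAA at 95 to 89 bases and CTTTGTT at 76 to 70 bases before the start. Over all 35116 RefSeq promoters of this length, 12% held at least 1 of the 4 motifs, 1.21% held at least 2 matches and 0.122% held at least 3. Among promoters of genes tested these shares were 8.43%, 0.581% and 0.0666%. These promoters belong to 11194 of the 16146 genes tested and to 1656 of the 2199 called higher, some genes having several. Several WNT targets described here, among them AXIN2, NKD1, NOTUM, ZNRF3 and FZD10, had no promoter entry and are absent from the shares. At least 1 match stood in 8.99% of the 2613 promoters of genes called higher, in 9.12% of the 2545 of genes called lower and in 8.15% of the 11364 of genes not called. At least 2 matches stood in 0.88% of windows of genes called higher, 0.707% of genes called lower and 0.484% of genes not called. A cut of 3 equals the count in the SP5 window. Windows with at least 3 matches numbered 8 among genes called higher (0.306%), 0 among genes called lower and 3 among genes not called (0.0264%). The 8 belong to CD74, CLDN11, CUBN, DBX1, RANBP3L, RARB, SP5 and SPRY2, a list made after the values were seen. A match describes the letters in these windows and is not evidence of binding.

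Secreted WNT antagonists changed in both directions. Of 16 tested, 8 were higher and 5 lower, beside 13.6% and 13.0% of all genes. Of the 16, 5 passed the filter only through the libraries with Dox. DKK2 and DKK4, relatives of DKK1, stood with it: DKK4 had 605, 826 and 1196 with Dox, against a total of 2 reads in the 3 libraries without. NOTUM, an esterase that removes the lipid from WNT proteins, had 1685, 2688 and 1875 with Dox, against 3 reads in each library without (log2 fold 9.09, adjusted p = 2.37e-12). TRABD2A, a membrane protease that cleaves WNT, had 558, 494 and 643 with Dox, against 7.32, 13 and 5.44 without (log2 fold 5.96). WIF1, which binds WNT directly, was uneven, with 22.2, 91.1 and 74.7 with Dox, against 1.83, 0 and 1.81 without (log2 fold 4.77, adjusted p = 5.14e-06).

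The secreted frizzled-related proteins that passed the filter were lower. SFRP2 had 306, 511 and 348 with Dox, against 1136, 1107 and 1039.8 without (log2 fold -1.53, adjusted p = 0.000239). SFRP1 (log2 fold -0.83) and FRZB (-0.98) were also lower, without overlap of the groups. DKK3, a divergent member of the DKK family, was lower as well (log2 fold -1.24, adjusted p = 0.000613), with USP47 overlapping 47.5% of its exon sequence on the other strand.

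Receptors, ligands and the destruction complex held genes called in both directions. Frizzled receptors and co-receptors numbered 5 higher and 7 lower of 16, beside 13.6% and 13.0% of all genes. Without OE without Dox replicate 2 or 3 only 3 were called higher. FZD10, a receptor of dorsal neural tissue, had 669.5, 1864 and 1572 with Dox, against 1.83, 21.3 and 9.97 without (log2 fold 7.15, SE 0.94, adjusted p = 7.15e-05). FZD5, a receptor of the early eye field and ventral forebrain, had 377, 569 and 414 with Dox, against 2625, 2451 and 3032 without (log2 fold -2.59, adjusted p = 0.000579). The 3 libraries without Dox also stood well above the WT mean of 393, so in FZD5 the cells with Dox were the closer ones to WT. FZD1 and FZD2 were lower by log2 folds of -1.02 and -0.89, and the co-receptor LRP6 by -0.75. ROR1, a receptor of non-canonical WNT5A signalling, was higher (162, 154 and 205 with Dox, against 42.1, 60.1 and 61.6 without).

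LGR4, a receptor for R-spondins, which potentiate WNT signals, had 219.8, 248 and 118 with Dox, against 1364, 1239 and 905 without (log2 fold -2.62, adjusted p = 1.24e-07). Its ligand RSPO2 was lower (log2 fold -2.71), while RSPO4 (3.15) and RSPO1 (1.26) were higher. RSPO3 was lower (log2 fold -1.45, adjusted p = 0.017), a call lost without OE with Dox replicate 3 or OE without Dox replicate 1 or 3. Of the 6 R-spondins and receptors tested 2 were higher and 3 lower, beside 13.6% and 13.0% of all genes. RSPO4 passed the filter only through the libraries with Dox. Of 14 WNT ligands tested 3 were higher and 5 lower. The 3 higher ligands passed the filter only through the libraries with Dox, so their direction follows from it, and the lower count was 3 without OE with Dox replicate 1 or 3 or without OE without Dox replicate 3. WNT7A, a ligand of dorsal forebrain and neural progenitors, had 13.8, 26.9 and 3.69 with Dox, against 114, 164 and 158 without (log2 fold -3.53, adjusted p = 2.58e-05). WNT16 had 66.5, 87.4 and 54.4 with Dox, against a single read in the 3 libraries without Dox.

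In the destruction complex AXIN2, the inducible scaffold and textbook feedback gene, was higher, at 3044, 3374 and 3232 with Dox, against 193, 144 and 181 without (log2 fold 4.22). Another gene overlaps 25.3% of its exon sequence on the same strand. Its paralogue AXIN1 was not called (log2 fold 0.27, adjusted p = 0.23). APC, the tumour suppressor that presents beta-catenin to the complex, had 512, 483 and 403 with Dox, against 1394, 974 and 997 without (log2 fold -1.25, adjusted p = 9.45e-06). Its relative APC2 (log2 fold -1.63) and the kinase GSK3B (-0.55) were lower too, with no overlap between groups.

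The TCF and LEF factors themselves divided. LEF1 had 1615, 2018 and 1902 with Dox, against 198, 211 and 258 without (log2 fold 3.05). TCF7 had 147, 206 and 312 with Dox, against 53, 40.7 and 69.8 without (log2 fold 1.97). TCF7L1 and TCF7L2, which often act as repressors when beta-catenin is absent, were lower by log2 folds of -0.72 and -0.78. TLE1, a Groucho co-repressor, was higher, with 758, 1184 and 1086 with Dox, against 522, 359 and 642 without (adjusted p = 0.00447).

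**Figure D2:**
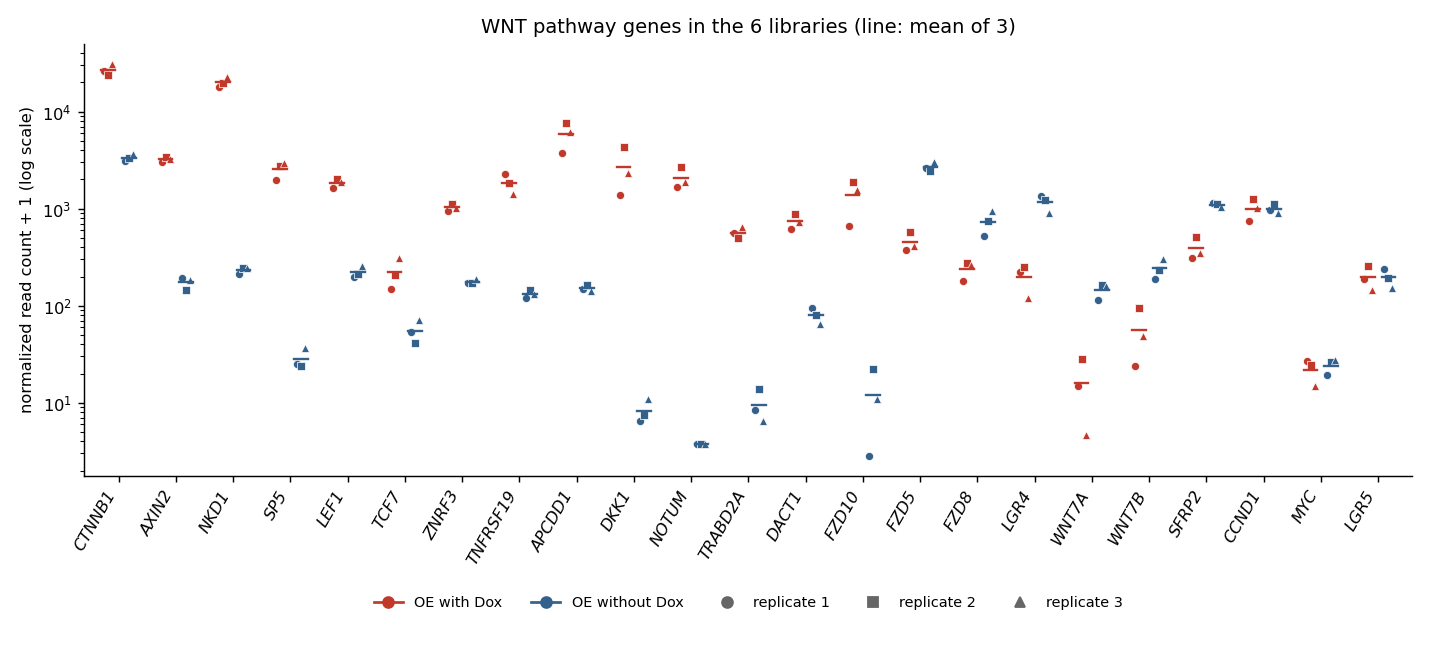
Normalized read count plus 1 (log scale) of 23 WNT pathway genes in each of the 6 libraries, OE with Dox left of OE without Dox, with lines at the mean of 3. NKD1, SP5, DKK1 and NOTUM separate the groups by log2 folds of at least 6.42, FZD5, LGR4 and WNT7A are lower with Dox, and CCND1, MYC and LGR5 overlap.

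Levels in a bulk culture do not tell fewer cells of a type from less RNA per cell, which applies to all that follows. The culture without Dox expressed the defining MGE factors NKX2-1, LHX6 and LHX8, and none of 8 microglia and macrophage markers passed the filter. Factors of MGE identity were lower with Dox: 16 of 19 tested were lower, 1 was higher, and the median log2 fold was -2.29. Of the 19, 2 passed the filter only through the libraries without Dox. LHX6, which specifies MGE-derived interneurons, had 9.23, 2.79 and 0.922 with Dox, against 416, 120.3 and 153 without (log2 fold -5.56, adjusted p = 3.19e-06). NKX2-1, the master regulator of the MGE, had 910.5, 274 and 296 with Dox, against 1845, 1378 and 2394 without (log2 fold -2.12, adjusted p = 0.000929). Library 1 with Dox stood well above the other two for NKX2-1 and was still below every library without Dox. SFTA3 overlaps 40.7% of NKX2-1 exon sequence on the same strand, so some of these reads may belong to it. GBX1, a homeobox factor of the ventral telencephalon, gave a single read in the 3 libraries with Dox, against 57.6, 29.6 and 68 without.

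The member that rose was MAF, a factor of postmitotic interneurons, with 533, 1084 and 932 with Dox, against 220.4, 239 and 172 without (log2 fold 1.96, adjusted p = 5.89e-06).

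The machinery of GABA synthesis split: GAD2 (log2 fold -3.49) and the vesicular transporter SLC32A1 (-2.85) were lower, while GAD1 had 2525, 2848 and 3313 with Dox, against 1009.6, 414 and 349 without (log2 fold 2.45). GAD1 and GAD2 make the same transmitter, and in neither gene did the groups overlap.

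The hosts of microRNA-9, an abundant microRNA of neural progenitors, were among the genes with the largest falls. MIR9-3HG had 57.2, 69.7 and 12 with Dox, against 1505, 536 and 1336 without (log2 fold -4.77, adjusted p = 8.46e-05). MIR9-1HG (log2 fold -4.42, adjusted p = 0.00111) and LINC00461, which hosts the copy on chromosome 5 (-5.08, adjusted p = 0.000662), stood likewise below, with no overlap. With the replicate block MIR9-3HG stayed called (adjusted p = 0.036), but MIR9-1HG (adjusted p = 0.0616) and LINC00461 (adjusted p = 0.0861) did not. The hairpins of all 3 hosts give the same mature sequence, shown here from RefSeq (GRCh38.p14) with its seed, bases 2 to 8, in capitals. It lies at chr1:156420392-156420414 and chr5:88666902-88666924 on the minus strand and at chr15:89368032-89368054 on the plus strand.
hsa-miR-9-5p: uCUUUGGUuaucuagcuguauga
The libraries count host transcripts, and mature microRNA-9 was not measured.

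All 5 ZIC genes, zinc-finger factors of the dorsal neural tube, were called higher, with log2 folds from 1.21 to 4.40. ZIC4 had 3731, 3556 and 3590.0 with Dox, against 142, 129 and 274 without (adjusted p = 4.88e-09). ZIC1 had 5938, 5937 and 6601 with Dox, against 646, 476 and 1208 without (log2 fold 3.10). OTX1, a forebrain and midbrain homeobox factor, had 2311, 2784 and 3224 with Dox, against 160.0, 168 and 225 without (log2 fold 3.91). The homeobox factors MSX1 of the dorsal midline (log2 fold 3.63), BARHL2 of the diencephalon (3.48) and IRX3 of the caudal forebrain (3.71) rose too. FOXB1, a factor of the caudal hypothalamus and midbrain, had 440.5, 366 and 511 with Dox, against 28.4, 58.3 and 10.9 without (log2 fold 3.99). FOXB2 gave 133, 145 and 206 with Dox and no read without Dox, at least 58.7-fold higher against a floor of 3 reads per library. EN1, a midbrain and hindbrain factor, gave 27.7, 216 and 91.2 with Dox and no read without, at least 40.7-fold higher.

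Of 24 midbrain, hindbrain and spinal cord factors listed, 14 passed the filter, 1 of them only through the libraries with Dox. Of these 14, 6 were higher and 1 was lower, with a median log2 fold of 1.59, beside 13.6% of all genes higher, and the replicate block called 9 higher and 1 lower. In the hypothalamus and ventral diencephalon list, which holds FOXB1, 6 of 17 were higher and 6 lower (median log2 fold -1.19). GBX2, a hindbrain-side partner of OTX2, overlapped between groups (adjusted p = 0.536). In the dorsal telencephalon and cortical hem list, which holds OTX1, 4 of 21 were higher and 7 lower. Over all genes 13.6% were higher and 13.0% lower. LHX2, a selector of cortex, had 107, 169 and 91.2 with Dox, against 653, 657 and 810.4 without (log2 fold -2.56), while the roof plate factor LMX1A was also lower (log2 fold -1.95, adjusted p = 0.00624). EMX2, a dorsal cortical factor, was not called (log2 fold 0.23, adjusted p = 0.891).

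A few factors differed strongly between the replicates with Dox. PAX3, a dorsal neural tube factor, had 17.5, 308 and 592 with Dox, against 2.74, 26.8 and 36.3 without. The groups overlapped, and PAX3 was not called in the unpaired limma test, which models all 14 libraries (adjusted p = 0.0537). It was called with the replicate block (adjusted p = 0.000143), by edgeR and DESeq2, and without OE with Dox replicate 1. DBX1, a progenitor factor, had 45.2, 258 and 550.3 with Dox, against 24.7, 29.6 and 29 without, and its call (adjusted p = 0.012) was lost with the block (adjusted p = 0.0529). EOMES, a marker of cortical intermediate progenitors, had 499, 21.4 and 23 with Dox, against 38.4, 41.6 and 58.9 without (adjusted p = 0.767). NEUROG2, a proneural factor of cortex, was also highest in library 1, at 729.5, 132 and 111 with Dox, against 72.2, 60.1 and 55.3 without (adjusted p = 0.0779), and its groups did not overlap.

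FGF ligands held several of the largest rises. Of 15 tested 9 were higher and 2 lower, with a median log2 fold of 2.48, and 4 passed the filter only through the libraries with Dox. FGF17, a ligand of the anterior midline and the midbrain-hindbrain boundary, had 1166, 1310.4 and 1536 with Dox, against 16.5, 34.2 and 29 without (log2 fold 5.65, adjusted p = 7.85e-10). FGF8, of the same signalling centres, had 1052, 1019 and 2171 with Dox, against 15.6, 62 and 19.9 without (log2 fold 5.57, adjusted p = 0.000197). FGF18, the third ligand of that subfamily, had 276, 198 and 264 with Dox, against 9.14, 8.33 and 8.16 without (log2 fold 4.68). FGF20 gave 501, 979.6 and 575 with Dox and no read without, at least 249.6-fold higher against the floor of 3 reads per library. FGF19 (log2 fold 3.30) and the intracellular FGF12 (2.48) were higher as well.

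Feedback genes that FGF and ERK signalling induce were higher beside them. SPRY2, an inhibitor of receptor tyrosine kinase signalling, had 1339.9, 1489 and 1441 with Dox, against 134, 184 and 137 without (log2 fold 3.24). ETV4, an ETS factor downstream of FGF, had 233, 348 and 504 with Dox, against 8.23, 14.8 and 10.9 without (log2 fold 4.85). The phosphatases DUSP5 (log2 fold 4.42) and DUSP6 (1.58) rose, with 28.6% of DUSP6 exon sequence overlapping a gene on the other strand. The receptors moved the other way: FGFR3 had 97.9, 229.6 and 41.5 with Dox, against 1186, 1506 and 1096 without (log2 fold -3.66), and FGFR2 fell by 3.04 on the log2 scale. Over the 20 tested receptors and feedback genes 9 were higher and 4 lower. The higher count was 11 with the replicate block and 6 without OE with Dox replicate 2. The lower count was 2 with the replicate block, and also without OE with Dox replicate 3 or OE without Dox replicate 1 or 3.

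BMP4, a ligand of dorsal midline tissue, had 352, 619.9 and 406 with Dox, against 12.8, 13 and 9.97 without (log2 fold 5.12, adjusted p = 1.93e-08). Of its antagonists 8 of 15 were higher and 2 lower, beside 13.6% and 13.0% of all genes. Of the 15, 2 passed the filter only through the libraries with Dox. Of the BMP-induced genes BAMBI, a decoy receptor, was higher (log2 fold 2.95). The ID proteins, which block basic helix-loop-helix factors, split into ID3 (log2 fold 2.04) and ID4 (-2.59).

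Low levels of transcripts typical of mesendoderm appeared with Dox. Of 14 markers listed 6 passed the filter, 5 of them only through the libraries with Dox, so their direction follows from the filter. TBXT, the primitive streak factor Brachyury, had 17.5, 58.5 and 19.4 with Dox, against 1 read in the 3 libraries without. MIXL1, a homeobox factor of the same stage, had 42.5, 83.7 and 74.7 with Dox, against 2 reads without. Endoderm factors SOX17 and FOXA2 and the organizer factor GSC did not pass the filter. The 1 tested member not called was EOMES (log2 fold 0.47), which was high in library 1 with Dox alone. With EOMES included, the 14 markers summed to between 312 and 754 with Dox and between 58.5 and 120 without. Whether these reads come from a minor cell type was not tested.

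**Figure D3:**
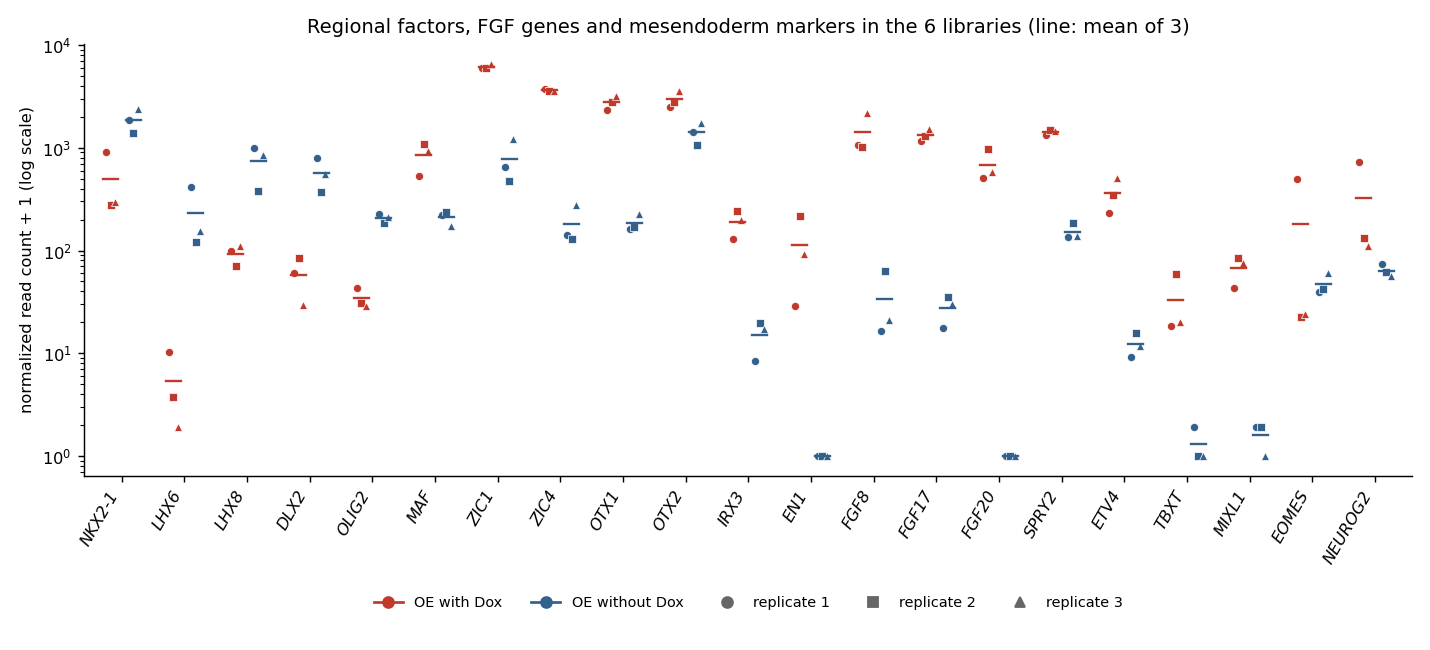
Normalized read count plus 1 (log scale) of regional factors, FGF genes and mesendoderm markers in each of the 6 libraries, OE with Dox left of OE without Dox, with lines at the mean of 3. NKX2-1, LHX6 and LHX8 lie lower with Dox and the ZIC and FGF genes higher, while EOMES is high in library 1 with Dox alone and NEUROG2 is highest there.

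Neuronal transcripts were lower with Dox as a broad class. Of 35 cytoskeletal genes of neurons 23 were lower and 3 higher (median log2 fold -1.03). The higher count was 5 with the replicate block, and 1 without OE with Dox replicate 1 or 2 or OE without Dox replicate 1. Of 35 synapse genes 19 were lower and 4 higher (-0.74), and of 33 voltage-gated channels 20 were lower and 4 higher (-0.95), beside 13.0% of all genes lower. NNAT, an imprinted neuronal proteolipid, had the largest loss of mean normalized count of all genes called, 1902, 1939.6 and 1506 with Dox, against 11070.4, 11278 and 10729.8 without (log2 fold -2.64, adjusted p = 6.9e-10). MAP2, of dendritic microtubules, had 1128, 1518 and 1306 with Dox, against 5294, 4025 and 4925 without (log2 fold -1.85). MYT1L, a neuron-specific repressor of other fates, had 11.1, 4.65 and 8.29 with Dox, against 97.8, 81.4 and 62.5 without (log2 fold -3.22).

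Exceptions ran against that class. GAP43, a growth cone protein, had 1368, 1901 and 2053 with Dox, against 783, 778 and 953 without (log2 fold 1.07, adjusted p = 0.00166). SLC17A7, the vesicular glutamate transporter of cortical neurons, had 131, 96.7 and 49.8 with Dox, against 7.32, 7.4 and 7.25 without (log2 fold 3.38). Among glutamate receptors the kainate subunit GRIK3 fell to 111, 139 and 42.4 with Dox, against 2479, 1441 and 1273 without (log2 fold -4.24). Its relative GRIK1 was higher, at 538, 472 and 344 with Dox, against 19.2, 19.4 and 24.5 without (log2 fold 4.34). CHRM2, a muscarinic acetylcholine receptor, had 997, 878 and 721 with Dox, against 1.83, 3.7 and 0.906 without (log2 fold 8.19). GADL1, an enzyme of the glutamate decarboxylase family, had 267, 323 and 273 with Dox, against 1 read in the 3 libraries without.

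Of 20 radial glia and progenitor genes 3 were higher and 8 lower (median log2 fold -0.27), beside 13.6% and 13.0% of all genes. The share called higher was thus near that of all genes. The higher count was 5 with the replicate block, and also without OE with Dox replicate 1. SOX2, the neural stem cell factor, had 2766, 2616 and 2684 with Dox, against 2568, 3105 and 3160.2 without, and was not called (log2 fold -0.12, adjusted p = 0.536). Its close relative SOX3 had 117, 237 and 49.8 with Dox, against 1104, 1139 and 970.0 without (log2 fold -3.25, adjusted p = 0.000227). Over 12 SOX genes tested 8 were lower and 1, SOX13, was higher. HES5, a NOTCH effector of radial glia, had 208, 166 and 61.8 with Dox, against 1298, 1314 and 1845 without (log2 fold -3.50). The NOTCH ligand DLL1 (log2 fold -2.38), the modulator LFNG (-2.44) and NOTCH1 (-1.44) were lower, but NOTCH3 was not called (log2 fold 0.00, SE 0.16). Of 20 NOTCH receptors, ligands and modulators tested 3 were higher and 8 lower, and the replicate block called 5 higher. The share called higher was near the 13.6% of all genes. Of 7 HES and HEY factors tested 2 were higher and 4 lower. NR2E1, an orphan nuclear receptor of forebrain stem cells, had 29.6, 53.9 and 10.1 with Dox, against 476, 502 and 471 without (log2 fold -4.19).

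Guidance, adhesion and matrix genes held some of the largest single changes. SEMA3E, a secreted semaphorin, had 1358, 1574 and 1179 with Dox, against 4.57, 13 and 3.63 without (log2 fold 7.58). CHL1, an adhesion molecule of the L1 family, had 5830.4, 6315 and 5164 with Dox, against 125, 172 and 119.7 without (log2 fold 5.38, adjusted p = 2.67e-11). PATJ, a scaffold of apical junctions, had 3924, 2566 and 4007 with Dox, against 97.8, 98.1 and 112 without (log2 fold 5.05, adjusted p = 1.15e-11). The other apical genes CRB1 (log2 fold -2.83) and CRB2 (-1.52) were lower. NTN1, a midline attractant made by ventral cells, had 210.5, 276 and 231 with Dox, against 1046, 1361 and 1159 without (log2 fold -2.31, adjusted p = 1.96e-09).

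Of 40 ephrin, slit and netrin guidance genes 19 were lower and 5 higher, beside 13.0% and 13.6% of all genes. The share called higher was thus near that of all genes, and the replicate block called 9 higher. Of 33 laminins and other matrix genes 17 were higher and 4 lower (median log2 fold 0.63), and 3 passed the filter only through the libraries with Dox and 1 only through those without. LAMB1, a laminin of basement membranes, had 823, 1704 and 1172 with Dox, against 92.4, 175 and 90.7 without (log2 fold 3.37). The matrix proteoglycans of neural tissue diverged, with VCAN higher (mean 6824 with Dox and 3418 without) and NCAN lower (log2 fold -1.78).

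Retinoid genes changed at several steps. Of 16 tested genes of retinoic acid synthesis, breakdown and binding 6 were higher and 4 lower, beside 13.6% and 13.0% of all genes. The median log2 fold was 0.14, and the replicate block called 5 higher and 5 lower. ALDH1A2, which makes retinoic acid, had 156, 99.4 and 136 with Dox, against 0.914, 3.7 and 1.81 without (log2 fold 5.46). The retinoic acid carriers CRABP1 (log2 fold -2.56) and CRABP2 (-1.84) were lower, and 45.9% of CRABP1 exon sequence overlaps a gene on the other strand. LRP2, an endocytic receptor that binds SHH and retinoid carriers, had 208, 308 and 112 with Dox, against 1916, 1916 and 1822 without (log2 fold -3.28).

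**Figure D4:**
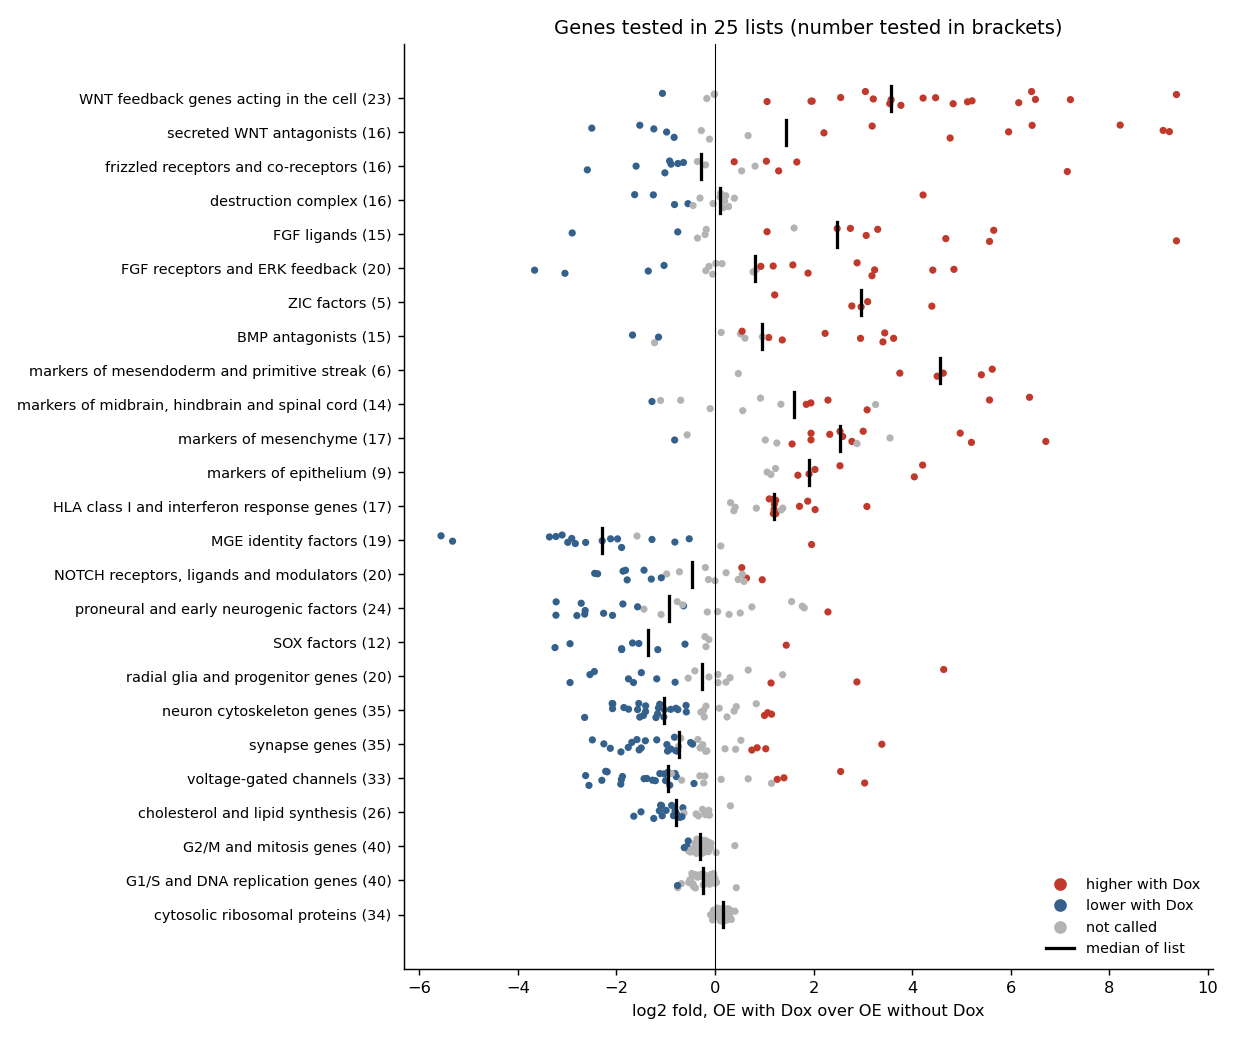
Log2 fold of OE with Dox over OE without Dox (horizontal axis) of every tested gene in 25 gene lists, 1 point per gene and a mark at each median. WNT feedback genes and ZIC factors lie to the right of 0 and MGE factors to the left, while ribosomal protein genes sit close to 0.

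Sterol synthesis was lower with Dox. Of 26 tested cholesterol and lipid synthesis genes 17 were lower, with a median log2 fold of -0.79, beside 13.0% of all genes lower. HMGCS1, which makes the first committed sterol precursor, had 2622, 1236 and 1071 with Dox, against 4715, 4538 and 5017 without (log2 fold -1.65, adjusted p = 0.000796). A gene on the other strand overlaps 37.7% of HMGCS1 exon sequence. SCD, a fatty acid desaturase, had 4517, 2686 and 1379.8 with Dox, against 7473, 8222 and 6208 without (log2 fold -1.50), whereas FASN, the fatty acid synthase, was not called (log2 fold -0.11, adjusted p = 0.56). The list's median distance from the mean without Dox was -0.39, -0.95 and -0.97 in the libraries with Dox, so library 1 showed the smallest difference.

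HLA class I and interferon response genes were higher. Of 17 tested 11 were called higher, with a median log2 fold of 1.20, beside 13.6% of all genes higher. HLA class I genes are close in sequence, and reads may be shared among them. TAP1, which transports peptides for loading onto HLA class I, had 305, 40 and 54.4 with Dox, against 11, 12 and 6.35 without (log2 fold 3.08). B2M, the light chain of HLA class I, had 1659, 558 and 552 with Dox, against 348, 412 and 304 without, and its call was lost with the replicate block (adjusted p = 0.00816, 0.0938 with the block). HLA-B was not called (836, 177 and 109 with Dox, against 102, 133 and 67.1 without, adjusted p = 0.108), and a pseudogene overlaps 47.3% of its exon sequence. Library 1 with Dox was the highest in each of these genes, and the list's median distance was 1.94, 1.23 and 0.65 in libraries 1, 2 and 3.

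**Figure D5:**
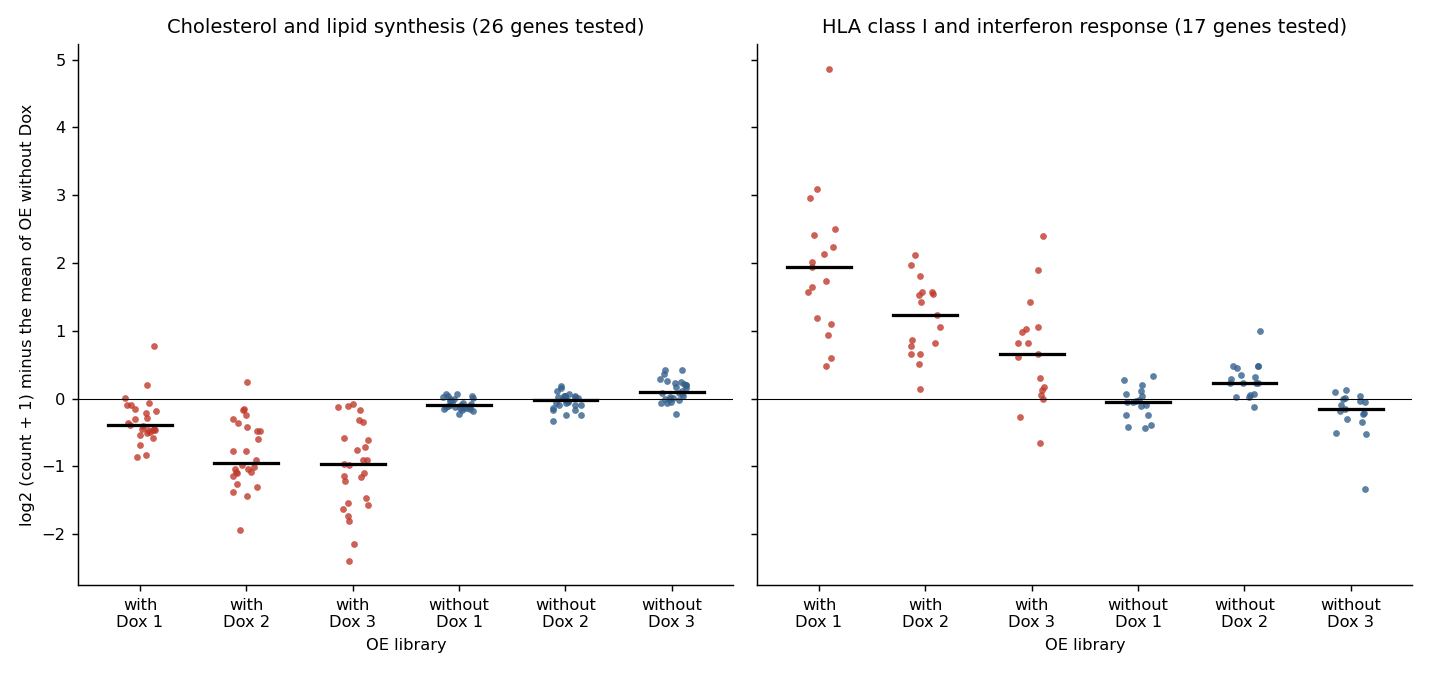
Log2 of normalized read count plus 1 minus the mean of OE without Dox, for each of 26 cholesterol and lipid synthesis genes (left) and 17 HLA class I and interferon genes (right), in the 6 OE libraries with OE with Dox first. Sterol genes lie lower in the libraries with Dox, least so in library 1, and HLA and interferon genes lie higher, most so in library 1.

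Markers of some non-neural cells differed between the groups, to be read beside 13.6% of all genes higher and 13.0% lower. Mesenchyme and epithelium are described below, and other marker lists varied. Of 10 choroid plexus markers 4 were higher and 3 lower. Of 11 neural crest and pigment markers 2 were higher and 3 lower, or 5 and 2 with the replicate block. Of 4 endothelium and blood markers 3 were higher, and of 3 muscle markers 0 were called. Of 22 mesenchyme markers 17 passed the filter, 2 of them only through the libraries with Dox, 11 were higher and 1 lower, and their summed level ran between 3536 and 8382 with Dox, and between 743.5 and 2285 without. TCF21, MEOX1 and MEOX2, factors of particular mesenchymal lineages, had means of at most 2.78 in both groups. Without OE with Dox replicate 2 or OE without Dox replicate 1 only 7 were called higher. PRRX1, a mesenchymal homeobox factor, had 310.3, 269 and 229 with Dox, against 5.49, 13.9 and 5.44 without (log2 fold 4.97). TWIST2, a relative of the mesenchymal factor TWIST1, had 219.8, 204 and 202 with Dox, against 0, 1.85 and 1.81 without (log2 fold 6.71). COL1A1, the main fibrillar collagen, was uneven at 1008, 1352 and 251 with Dox, against 45.7, 330.4 and 68 without. The groups overlapped, and its call (adjusted p = 0.0209) was lost without OE with Dox replicate 1 or 2 and without OE without Dox replicate 1 or 3 (highest adjusted p 0.0997).

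Of 18 epithelial markers 9 passed the filter, 6 were higher, 2 of the 9 passed only through the libraries with Dox, and the list had summed levels between 442 and 977 with Dox, and between 145 and 273 without. KRT14, the keratin of basal epidermis, was at 0 in all 6 libraries. KRT19, a simple epithelial keratin, had 114, 253 and 189 with Dox, against 18.3, 45.3 and 30.8 without (log2 fold 2.53). CDH1, the epithelial cadherin, overlapped between groups and was not called (adjusted p = 0.131). The part of such cells in the matrix, HLA and signalling results was not tested.

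Ribosomal, cell cycle and mitochondrial genes showed small median folds. Their counts are to be read beside 13.6% of all genes higher and 13.0% lower. Of 34 cytosolic ribosomal protein genes 0 were called by limma, edgeR or DESeq2, and 6 had an unadjusted limma p under 0.05, all with a positive log2 fold (median of the list 0.17). The replicate block called 2 of them higher. Without OE without Dox replicate 2 limma called 6 higher, and without replicate 3 of that group 1. Of 40 G2/M genes 4 were lower, with a median log2 fold of -0.30. That count was 8 with the replicate block, 13 without OE with Dox replicate 3, 2 without OE without Dox replicate 2, and 0 without OE with Dox replicate 2 or OE without Dox replicate 3. Of 40 G1/S genes 1 was lower, but 13 were with the replicate block. Leaving out OE with Dox replicate 1 or 3, or OE without Dox replicate 2, gave 2, 4 and 3 lower G1/S genes. Mitochondrially encoded genes were 5 higher of 13, or 3 without OE without Dox replicate 2, with a median log2 fold of 0.28. The share called higher was thus above that of all genes. Their share of all counts was 3.03%, 2.62% and 2.51% with Dox, against 2.39%, 2.31% and 2.2% without, with no overlap.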

How the data were processed

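The 6 libraries were RNA-seq libraries made with the NEBNext Ultra kit from 500 ng of total RNA, per the labels' protocols. Of tools and builds, TopHat2 2.1.1, DESeq2, HTSeq 0.9.1, hg38 and R 3.4.0 stand in the submitters' processing notes, without roles or order; the annotation release and the strand setting are not given in the sources used here. The deposited values are a normalized signal, for which the authors scaled each library's gene counts by a single factor. After division by that factor's step 100.0% of the values were whole reads, within a tolerance of 0.01. All 14 libraries held 5233270 to 5639725 reads in genes. A count of 0 allows 3 reads, a normalized count of 2.72 to 2.79 in the 6 OE libraries, which covers counting error only. Names and coordinates came from GENCODE 44, which names 56948 identifiers and leaves 1103 unnamed.

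Normalized counts were tested on a log2 scale after a pseudocount of 1 was added, so folds of low genes are understated. The main test was limma 3.58.1 (R 4.3.3), two-sided, with 4 groups and all 14 libraries in 1 model, 10 residual degrees of freedom and the trend and robust options. Benjamini-Hochberg adjustment covered 16146 genes. A fold against a group with no read was computed against 3 reads in each library, and a fitted log2 fold of such a gene depends on the pseudocount. Alternatives were pseudocounts of 0.5 and 5, no filter, a filter of 50, TMM scaling, the 6 OE libraries alone, DESeq2 1.42.0 or edgeR 4.0.16 run on the recovered reads, leaving out each library, and the replicate number as a block. Replicate numbers were treated as pairs in the block because deviations of same-numbered libraries from their group mean correlated across genes (Pearson r 0.236, 0.258 and 0.425). Different numbers gave -0.241 to 0.016. Deviations from a group's own mean cancel within the group, so the low values for different numbers follow in part from the high ones. The block fit quoted beside results uses the 6 OE libraries. Simulated data had 100 genes changed at each size among 16146, drawn from genes above a minimum mean count. The test recovered 60% of genes changed 2-fold and 98% of those changed 4-fold, and 11.7% of its calls were false. Recovery therefore does not cover the lowest genes. The false share lay above the adjusted p threshold of 0.05. Calls of the main test may thus be false more often than that threshold states. In the real data 26.7% of genes were called, far more than were changed in the simulation, and the false share there was not tested.

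The comparison, the 79 gene lists and the tests were chosen with earlier results of these data known. Lists are described by counts and medians. A rule names CTNNB1, the largest rises and falls, genes with at most 3 reads in one group, and up to 6 called and 3 uncalled members of each list, 600 genes in all. A further 49, and the genes whose promoters held 3 motif matches, were added after their values were seen, and those printed are a selection, with some genes not reported here. Motifs were searched in RefSeq promoters of GRCh38.p14, which is hg38. Figures were drawn with matplotlib 3.10.9, and tables made with numpy 2.4.6 and pandas 2.3.3 in Python 3.11.15.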

Additional observations from a re-analysis of the deposited data

How the results depend on the processing

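With all libraries kept, the count of genes called higher (2199) ran from 1770 with a filter of 50 to 2951 with the replicate block on the 6 OE libraries, and the count called lower (2107) from 1639 to 2695 under the same settings. Pairing within all 14 libraries gave 2465 higher and 2354 lower. Leaving out each library in turn gave 1654 to 1985 higher and 1643 to 1888 lower. On recovered reads edgeR called 2130 higher and 2225 lower, and DESeq2 2227 and 2217. The CTNNB1 log2 fold stayed between 2.90 and 3.10 over all alternatives, with an adjusted p of 3.44e-07 under the replicate block. Of the genes called in either direction 2172 were called the same way under all 16 alternatives, 2736 whenever any 1 library was left out, and 4213 with the replicate block. No named gene that was called changed the sign of its fold under any alternative; signs of genes not called did change, among them CCND1, LGR5 and MYC. Depth limits the genes near the floor: 72 tested genes had at most 3 reads in all without Dox and 4 had at most 3 with Dox. Of the genes tested 323 passed the filter only through the libraries with Dox, 284 of them called higher, and 184 only through those without, 155 of them called lower.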

Other observations

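The direction of calls differed between kinds of transcript. Of 1070 long non-coding RNA genes tested 8.13% were higher and 18.1% lower with Dox, against 15.4% and 13.8% of 13122 protein-coding genes. Among chromosomes, chromosome 3 had the highest share of nuclear genes called higher (17.9% of 933) and chromosome 19 the lowest share among the autosomes (7.34% of 1062). MUCL1, which encodes a small mucin-like protein, had 118, 128 and 103 normalized counts with Dox and no read without it, at least 42.4-fold higher against 3 reads per library. PROX1, a homeobox factor, had 1989, 1984 and 1594 with Dox, against 124, 156 and 71.6 without (log2 fold 4.03, limma adjusted p = 1.12e-09). ISM1, a secreted protein of the isthmus, had 622, 1018 and 1033 with Dox, against 0.914, 3.7 and 5.44 without (log2 fold 7.81).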
